A study of Ovis aries with 23 samples.

Results

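Membrane metalloendopeptidase (MME, also called neprilysin or CD10) was measured in injured lung tissue of 23 sheep with a custom nCounter assay, in which barcoded probe pairs hybridised to an mRNA are counted without amplification. The gene is 1 of 20 features in the deposited table, the feature T009, and was described over all 23 animals. It was selected with its levels by phenotype and observation time, and its relation to the neutrophil marker MMP8 (the feature T001), already known from these animals. Its group levels, the differences between them and its correlations over all animals are therefore given as a description, with no test. The animals were female Merino-Dorset ewes, anesthetized and mechanically ventilated. Ph1 animals (n = 14) received oleic acid (OA) intravenously, and Ph2 animals (n = 9) received OA and intravenous lipopolysaccharide (OA-IV-LPS), so that OA was common to both groups and no uninjured animal was among the samples. Lung tissue of 5 Ph1 and 3 Ph2 ewes was taken after 6 h, that of another 4 and 3 after 12 h and that of the remaining 5 and 3 after 24 h, and the labels describe RNA of the right lung lobes as pooled in each animal. The study called CELTIC contributed 8 Ph1 and 4 Ph2 animals, none of them at 24 h, and the study called STARDUST contributed 6 Ph1 and 5 Ph2 animals.

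Neprilysin is a zinc metallopeptidase of the cell surface that cleaves and inactivates small peptides such as substance P, bradykinin and the enkephalins. In the lung it is present on airway epithelium and on stromal cells. Among leukocytes it is known as CD10, an antigen of precursor B cells and of mature neutrophils, which immature neutrophils largely lack in human blood. MMP8, the neutrophil collagenase, is in contrast stored in neutrophil granules that are filled during maturation in the bone marrow, and its mRNA belongs mainly to the precursors. In pooled lung tissue, fewer cells of a type and less RNA per cell cannot be told apart. No marker of epithelium, endothelium or fibroblasts alone was among the probes, so the tissue itself could not be checked against defining markers.

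The probe sequences are those the supplement lists under each gene name, and they were not placed on a transcript. Every assay uses a pair of oligonucleotides per gene, and the pairs for MME and MMP8 are printed because the main comparison rests on them. All 22 probe B oligonucleotides of the probe table begin with the same 25 bases, printed in lower case, and capitals mark the 50 bases that follow and differ between genes. The probe A oligonucleotides of 85 bases are in lower case throughout, since the gene-specific part was not marked. All are written 5′ to 3′.
MME probe A: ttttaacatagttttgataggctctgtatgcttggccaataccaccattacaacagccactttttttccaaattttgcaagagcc
MME probe B: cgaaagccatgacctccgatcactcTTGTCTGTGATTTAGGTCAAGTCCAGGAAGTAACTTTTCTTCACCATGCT
MMP8 probe A: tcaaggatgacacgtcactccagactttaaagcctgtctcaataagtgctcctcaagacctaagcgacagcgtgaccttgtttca
MMP8 probe B: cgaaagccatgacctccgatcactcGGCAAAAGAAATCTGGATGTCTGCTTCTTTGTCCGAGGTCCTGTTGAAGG

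The deposited table names its features by tag identifiers only, and T009 was read as MME because both stand at place 9, T009 in the deposited table and MME in the probe table. By the same rule 16 features were named, and the 4 features T036 to T039 keep their identifiers because the probe table lists 22 genes, more than the 20 features deposited. The named places hold all genes of interest of the probe table, so these 4 features would be among its housekeeping genes. The features at the places of ZDHHC19 and RBP7 (7 and 11) had median counts of 7 and 8 and the lowest medians of all features, against 22 or more for the others. The paper excluded RBP7 and a gene it calls ZDHHC18 as falling under the detection limit. In SD1 and SD11, but in no other animal, the feature at the place of RBP7 exceeded MMP8. The log2 normalized counts were 5.11 against 4.45 in SD1 and 4.07 against 3.63 in SD11. Counts were recovered from the unlogged values, which were whole multiples of 1 factor in each animal. All features together gave between 13871 and 34415 counts per animal. MME rested on 1796 to 14320 counts, and the half-width of its exact 95% Poisson interval was 1.64% to 4.65% of the count. MMP8 rested on only 11 to 160 counts, with a half-width of 15.8% to 64.5%. These intervals cover counting error only, and for MME the SD between the 23 animals was 0.63 on the log2 scale, where the full width of the interval was at most 0.13. MME took up 8.76% (SD9) to 41.6% (SD2) of the summed counts of the 20 deposited features in an animal, called all counts below.

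The mean log2 normalized count of MME was lowest in Ph2 at 6 h and highest in Ph1 at 24 h. In Ph1 at 6 h it was 11.73 in C1, 12.17 in C2, 11.98 in C3, 11.30 in C11 and 12.97 in SD6. In Ph1 at 12 h it was 12.73 in C17, 12.68 in C18, 12.61 in C21 and 12.42 in C19. In Ph1 at 24 h it was 13.12 in SD2, 13.02 in SD7, 13.03 in SD10, 12.74 in SD1 and 13.29 in SD14. The 12 h and 24 h animals of Ph1 lay close together, whereas the 6 h animals were spread widely, with SD6 above all animals of the 12 h group. In Ph2 at 6 h MME was 11.86 in C4, 12.07 in C5 and 11.70 in G33. In Ph2 at 12 h it was 12.49 in G34, 11.79 in SD4 and 12.43 in SD13. In Ph2 at 24 h it was 12.66 in SD8, 10.77 in SD9 and 12.87 in SD11. SD9 had the lowest MME of the 23 animals, and the other Ph2 animals at 24 h lay above all other Ph2 animals.

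**Figure D1:**
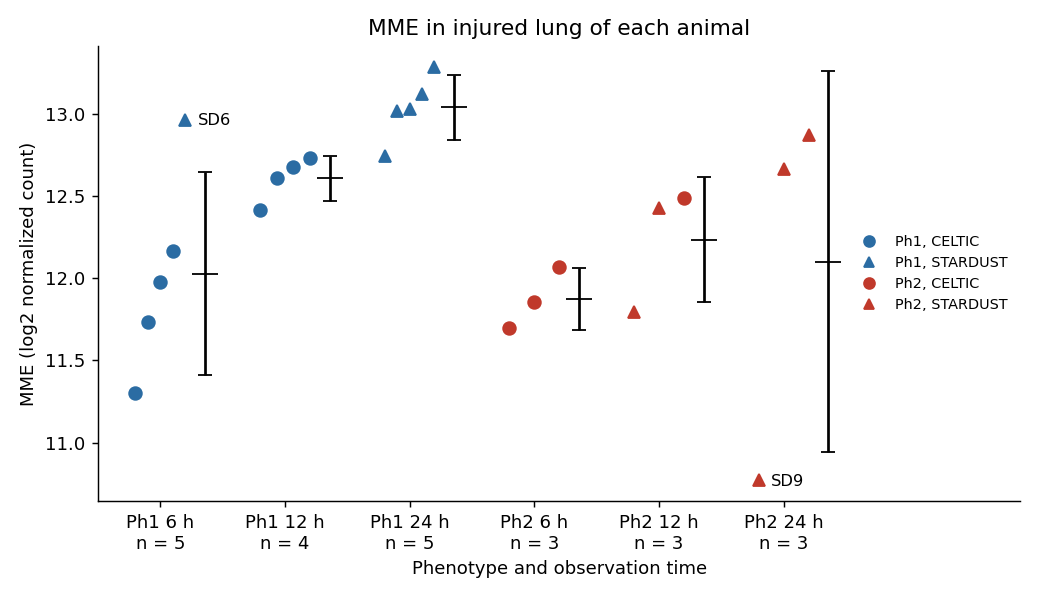
Log2 normalized count of MME in each animal (y-axis) by phenotype and observation time (x-axis). Circles are CELTIC and triangles STARDUST animals, and the black marks give the mean and SD of each group. The means in Ph1 are 12.03, 12.61 and 13.04 at 6, 12 and 24 h, and SD9 lies at 10.77, below all other animals.

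In order of their means, the groups were Ph2 at 6 h (11.88 ± 0.19, SD, n = 3), Ph1 at 6 h (12.03 ± 0.62, n = 5), Ph2 at 24 h (12.10 ± 1.16, n = 3), Ph2 at 12 h (12.24 ± 0.38, n = 3), Ph1 at 12 h (12.61 ± 0.14, n = 4) and Ph1 at 24 h (13.04 ± 0.20, n = 5). The first 4 groups were separated by steps of 0.15, 0.073 and 0.13, all smaller than the SD of at least 1 of the neighbours. The step of 0.37 from Ph2 to Ph1 at 12 h was about as large as the SD in Ph2 at 12 h. The step of 0.43 from Ph1 at 12 h to Ph1 at 24 h was larger than the SD of either group.

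MME was lower in Ph2 than in Ph1 at every observation time on average, but the phenotypes overlapped at each of them. Over all times, Ph2 animals had a mean of 12.07 ± 0.64 (SD, n = 9) and Ph1 animals one of 12.56 ± 0.58 (SD, n = 14), and 8 of 9 Ph2 animals lay below the Ph1 median of 12.70. At 6 h the means differed by -0.15, less than the SD of 0.62 in Ph1. Without SD6, the only STARDUST animal at 6 h, this difference was 0.081, in the opposite direction. At 12 h the means differed by -0.37, and all 3 Ph2 animals lay below the Ph1 median, 1 of them (SD4) below every Ph1 animal. Without SD4 this difference was -0.15, and between G34 and the Ph1 animals, all from CELTIC, it was -0.12. At 24 h the difference was -0.94, corresponding to a 1.92-fold higher mean in Ph1. It was -0.27 without SD9, where SD8 remained below every Ph1 animal and SD11 lay between them. The size at 24 h thus rested largely on a single animal. The pooled difference of -0.49 was -0.32 without SD9 and -0.23 without the 24 h animals. Within the studies it was -0.17 among CELTIC and -0.92 among STARDUST animals. The median of the other 13 named markers moved with the groups as well, by 0.66 from Ph1 to Ph2 among the 6 h animals, by 0.12 among the 12 h animals and by -0.31 among the 24 h animals. Relative to that median, the difference of MME (Ph2 minus Ph1) came to -0.82 for the 6 h animals, -0.49 for the 12 h animals and -0.63 for the 24 h animals.

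Within Ph1, MME was higher the later the tissue was taken, and the study of the animals changed along with the time. Among CELTIC animals, MME in Ph1 was 11.79 ± 0.37 at 6 h (SD, n = 4) and 12.61 ± 0.14 at 12 h (SD, n = 4), a difference of 0.82. All 4 animals at 12 h lay above the 4 at 6 h. Of the 20 features, 2 (10%) did not overlap between these groups, MME with higher values at 12 h and TCN1 with lower values. With SD6 included, the difference was 0.58 and the groups overlapped. From 12 h to 24 h in Ph1, MME differed by 0.43 and did not overlap, which held for 3 of 20 features (15%), the others being T036 and T037. The gap between the lowest animal at 24 h (SD1, 12.74) and the highest at 12 h (C17, 12.73) was narrow. As a share of all counts of an animal, MME was 37.2% ± 1.89 at 12 h and 39.7% ± 1.34 at 24 h in Ph1, against 21.9% ± 6.49 at 6 h. On this scale the 12 h and 24 h animals overlapped, as C21 reached 38.7% at 12 h and SD10 stood at 38.3% at 24 h.

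CELTIC supplied the whole Ph1 group at 12 h and STARDUST both groups at 24 h, so the study and the 24 h observation time cannot be told apart. RNA integrity, given by lobe in the paper's supplement, was mostly lower in CELTIC than in STARDUST, and its relation to MME was not tested. SD6, taken at 6 h in STARDUST, had an MME of 12.97, close to the STARDUST animals of Ph1 at 24 h and above the 4 CELTIC animals of its own group. Among STARDUST animals of Ph1 alone, MME at 24 h exceeded SD6 by only 0.075. All 6 STARDUST animals of Ph1 lay between 12.74 and 13.29, above all 8 CELTIC animals of Ph1 (11.30 to 12.73). Of the 20 features, only MME and T037 did not overlap between the studies in Ph1. T037 was at most 9.61 (SD6) in the STARDUST and at least 9.65 (C2) in the CELTIC animals of Ph1. In Ph2, MME of the CELTIC animals lay between 11.70 and 12.49 and that of the STARDUST animals between 10.77 and 12.87, and the ranges overlapped. At 12 h in Ph2, the only other group holding both studies, the CELTIC animal (12.49) and the STARDUST animals (11.79 and 12.43) were not separated in this way.

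Within Ph2, no ordered change of MME with time was seen. The means were 11.88 at 6 h, 12.24 at 12 h and 12.10 at 24 h, and the SD at 24 h was 1.16. Without SD9 the 24 h mean was 12.77 ± 0.15 (SD, n = 2), which is 0.89 above the mean at 6 h and 0.53 above that at 12 h. With SD9 the difference from 12 h to 24 h was -0.13, so its direction depended on that animal.

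MMP8 ran opposite to MME over the 23 animals. In Ph1 at 6 h, the log2 normalized count of MMP8 was 5.34 in C1, 4.07 in C2, 5.99 in C3, 4.96 in C11 and 4.04 in SD6. In Ph1 at 12 h it was 4.88 in C17, 4.28 in C18, 4.55 in C21 and 4.16 in C19, and at 24 h it was 4.17 in SD2, 4.00 in SD7, 3.38 in SD10, 4.45 in SD1 and 3.89 in SD14. The highest MMP8 in Ph1 thus belonged to 6 h animals, and the lowest to a 24 h animal. In Ph2 at 6 h it was 5.09 in C4, 7.0 in C5 and 6.6 in G33. In Ph2 at 12 h it was 5.14 in G34, 4.74 in SD4 and 4.47 in SD13, and at 24 h it was 3.52 in SD8, 7.28 in SD9 and 3.63 in SD11. SD9, with the lowest MME, had the highest MMP8 of all animals. Over the 23 animals Pearson's r between MME and MMP8 was -0.76 and Spearman's rho was -0.78. Within CELTIC (n = 12) r was -0.44 and within STARDUST (n = 11) it was -0.90. Without SD9 it was -0.66, and without SD9 and C11, the 2 animals farthest from the median of MME, it was -0.72. These values contain the differences between phenotypes, observation times and studies, and all features of an animal share 1 normalization factor.

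**Figure D2:**
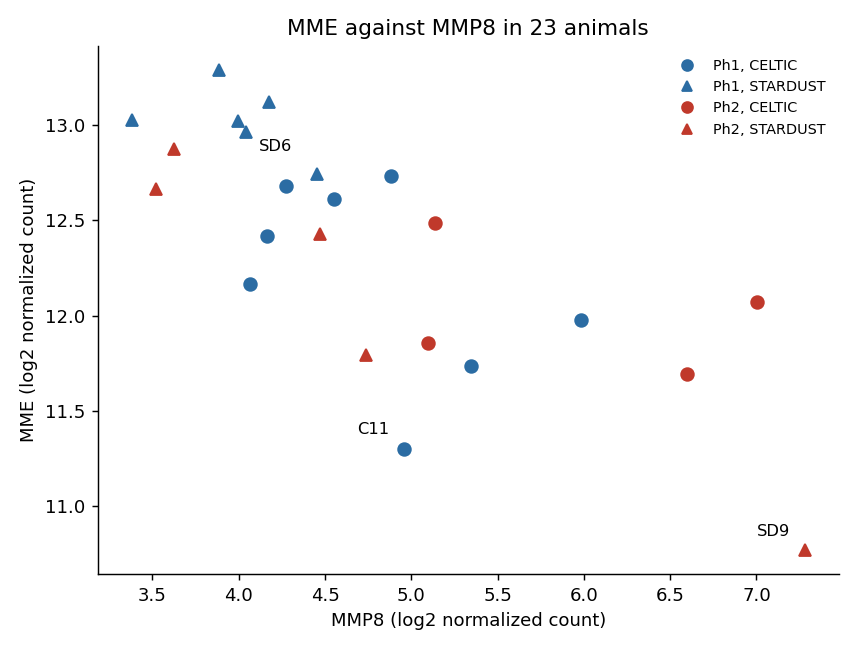
Log2 normalized count of MME (y-axis) against that of MMP8 (x-axis) in 23 animals. Colours give the phenotype and symbols the study, and SD9 lies at the lower right with an MMP8 of 7.28 and an MME of 10.77. Over all animals Pearson's r was -0.76.

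The difference between MME and MMP8 within an animal does not depend on the normalization factor. Over all times this log2 difference averaged 6.80 ± 1.94 (SD, n = 9) among Ph2 animals and 8.12 ± 1.14 (SD, n = 14) among Ph1 animals. The Ph2 mean minus the Ph1 mean was -1.51 for the 6 h animals, -0.69 for the 12 h animals and -1.77 for the 24 h animals, and the phenotypes overlapped at each time. At 6 h, C5 (5.07) and G33 (5.10) lay below all 5 Ph1 animals (5.99 to 8.92), and C4 (6.76) lay among them. At 12 h, SD4 (7.06) and G34 (7.35) lay below all Ph1 animals (7.85 to 8.40), and SD13 (7.95) did not. At 24 h, SD9 (3.49) was far below the Ph1 animals (8.29 to 9.65), while SD8 (9.14) and SD11 (9.25) lay inside their range. Without SD9 the difference between the phenotypes at 24 h was 0.13, in the opposite direction.

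**Figure D3:**
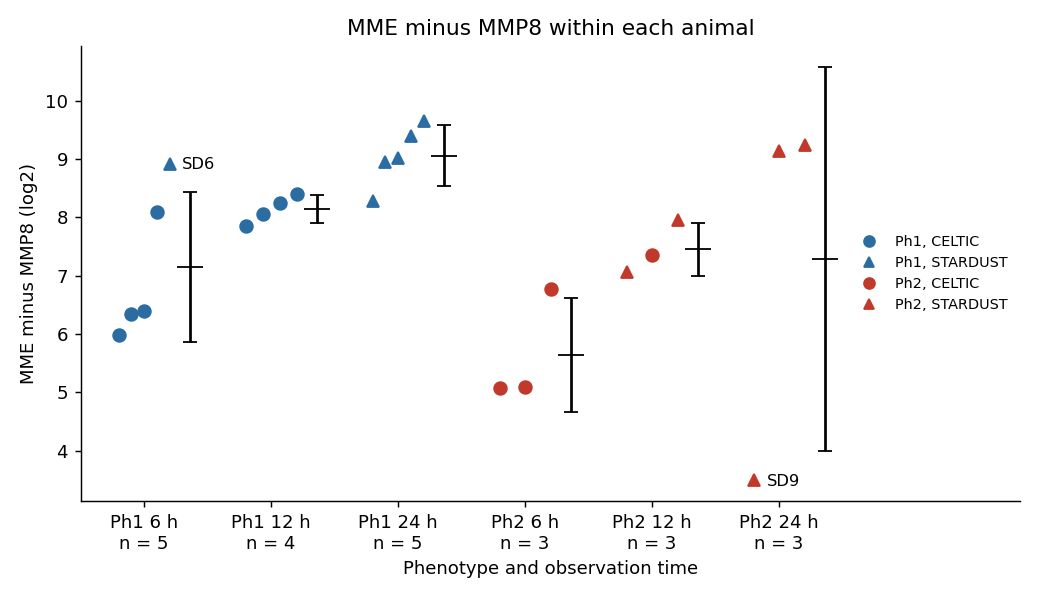
Log2 normalized count of MME minus that of MMP8 within each animal (y-axis) by phenotype and observation time (x-axis), with symbols as in the plot of MME by group and black marks for mean and SD. In Ph1 the means are 7.15, 8.14 and 9.06 at 6, 12 and 24 h, and SD9 lies at 3.49.

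Whether MME and the other features varied together among animals of the same phenotype and time was examined on deviations from the group means. As the relation to neutrophil features was part of the reason for describing MME, the values of the 5 neutrophil markers are given as a description, without p-values of their own. Pearson's r between the deviations of MME and MMP8 was -0.70 and Spearman's rho was -0.49. Without SD9, r was -0.29, so that 1 animal carried most of the inverse relation of the 2 genes inside groups. Within STARDUST, to which SD9 belonged, r was -0.94, and within CELTIC it was 0.020. Without the 24 h animals it was -0.28, and with the median of the other named markers subtracted in each animal it was -0.23. This subtraction takes the same value from both genes, which can raise r by itself. In a two-sided permutation test within groups, with Benjamini-Hochberg adjustment over the 19 features, 0 of 19 (0%) correlated with MME at an adjusted p below 0.05. The 5 neutrophil markers were among the 19, and their outcome in the test is not independent of the choice of MME. By Pearson's r, 5 features had an unadjusted p below 0.05, T037, HAL, T036 and TGFBI among them, and by Spearman's rho there were also 5.

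**Figure D4:**
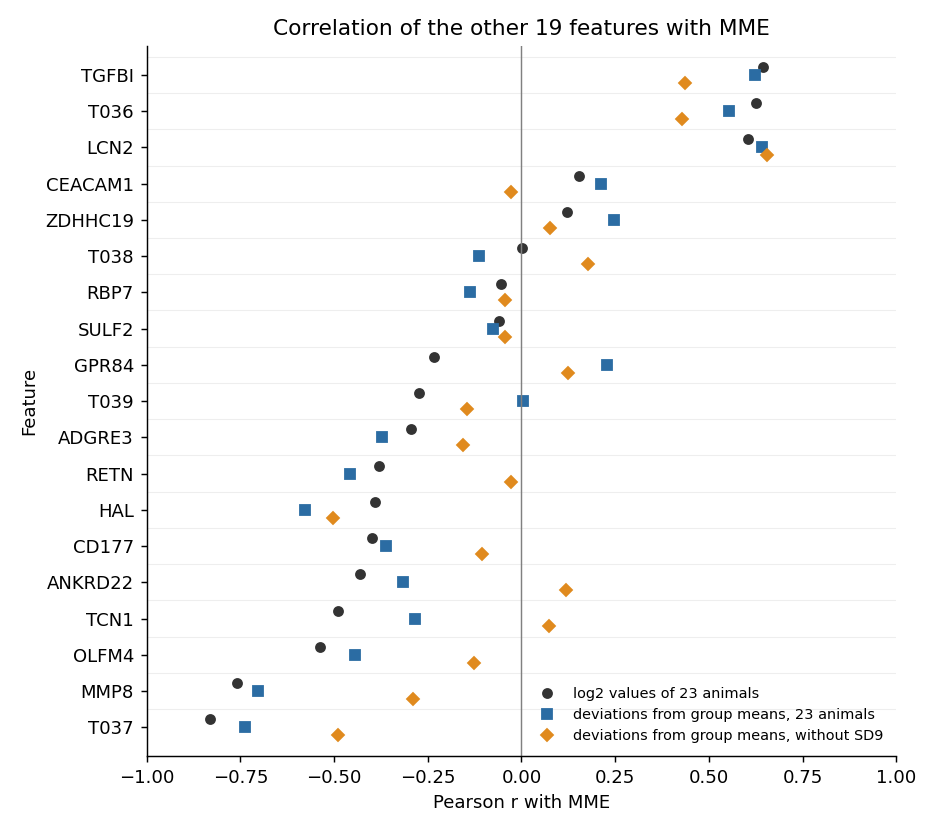
Pearson's r with MME (x-axis) for each of the other 19 features (y-axis). Circles use the log2 values of 23 animals, squares the deviations from the group means and diamonds these deviations without SD9. MMP8 moves from -0.76 to -0.70 and then to -0.29, and LCN2 lies at 0.60, 0.64 and 0.65.

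Of the 5 neutrophil markers, 4 correlated negatively with MME over the 23 animals, and LCN2 was the exception. Of all 19 features, 13 were negative over the animals and 12 inside groups, where 4 of the 5 neutrophil markers were. The median r of the list was -0.49, against -0.27 over all 19 features, and inside groups it was -0.36 against -0.14. OLFM4, a granule protein of a subset of neutrophils, had an r of -0.54 over all animals and -0.44 inside groups, on counts as low as 4. TCN1, the vitamin B12 carrier of neutrophil granules, is like LCN2 also made by airway epithelium and glands. Its r was -0.49 over all animals, with -0.80 in CELTIC and -0.30 in STARDUST, and -0.28 inside groups. CD177, a surface protein of a subset of neutrophils, had -0.40 over all animals and -0.36 inside groups, on 6 to 41 counts. Without SD9 the values inside groups were -0.13 for OLFM4, 0.075 for TCN1 and -0.11 for CD177. LCN2, the lipocalin of neutrophil granules that airway epithelium and glands also make, went with MME instead of against it. Its r was 0.60 over all animals and 0.64 inside groups. Inside groups it was 0.65 without SD9 and 0.49 without SD6, the lowest value with 1 animal left out. By Spearman's rho the values inside groups were 0.52 with SD9 and 0.32 without it. LCN2 ranged from 10.64 in C11, which had the second lowest MME, to 12.88 in SD6, the animal with the highest MME of the 6 h group. Within the studies its r inside groups was 0.16 in CELTIC and 0.60 in STARDUST.

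The features most like MME over the 23 animals were TGFBI (r = 0.65), T036 (0.63) and LCN2 (0.60), and the least like it were T037 (-0.83), MMP8 (-0.76) and OLFM4 (-0.54). TGFBI, an extracellular matrix protein induced by TGF-β, ranged from 7.83 in G33 to 9.90 in C3. Inside groups its r with MME was 0.62 (permutation p = 0.0428, adjusted p = 0.163). The value was 0.86 within CELTIC and 0.82 within STARDUST. With study means removed as well as group means, TGFBI had an r of 0.72 and an adjusted p of 0.0218, and without SD6 an r of 0.76 and an adjusted p of 0.0114. Without SD9 its r inside groups was 0.44 (permutation test, adjusted p = 0.806). Without SD9 and C11 its r was 0.26 (permutation test, adjusted p = 0.936). With unlogged values its r was 0.46 (permutation test, adjusted p = 0.432). TGFBI passed the adjusted threshold of the permutation test under 3 of 35 alternatives, and not in the main test. T036, which by its place would be a housekeeping gene, had an r of 0.55 inside groups (permutation p = 0.0158, adjusted p = 0.101).

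T037 was the feature with the strongest negative correlation over all animals, with -0.66 in CELTIC and -0.87 in STARDUST. By its place it would be a housekeeping gene. It ranged from 8.88 in SD11 to 11.32 in SD9, the animals of Ph2 at 24 h with the highest and the lowest MME. Inside groups its r was -0.74 (permutation p = 0.0213, adjusted p = 0.101), and -0.49 without SD9. With the median of the other named markers subtracted in each animal, the r of T037 inside groups became 0.062. A rise of r can come from the shared subtraction itself. Histidine ammonia-lyase (HAL), the first enzyme of histidine breakdown, had an r of -0.58 inside groups (permutation p = 0.0167, adjusted p = 0.101), -0.50 without SD9 and 0.36 under the same centring. Of the 5 other myeloid markers (RETN, GPR84, ADGRE3, HAL and ANKRD22), all correlated negatively with MME over the 23 animals, with a median r of -0.38, and 4 did so inside groups, with a median of -0.37, beside 13 and 12 of all 19 features. None passed the adjusted threshold.

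SD9, an OA-IV-LPS animal of STARDUST taken at 24 h, was examined by itself after its values had been seen. MME was 10.77 in SD9 and 11.30 to 13.29 in the other 22 animals. Of the 20 features, MME alone was lowest in SD9, and 5 were highest there, namely MMP8, RETN, HAL, T037 and T038. MMP8 was 7.28, against 3.52 and 3.63 in the other Ph2 animals at 24 h, and RETN (resistin) was 10.67, against 7.26 and 9.72. TGFBI was 8.17, against 9.52 and 9.87, and LCN2 was 11.12, against 11.65 and 12.45. These values of MME and MMP8 rest on 1796 and 160 counts, and the 20510 counts of SD9 in all were within the range of the other animals.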

How the data were processed

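Lung RNA of 23 sheep was analysed from 1 deposited table of log2 normalized counts of 20 features. According to the methods, the authors subtracted a background from the negative controls, normalized to the geometric mean of 3 housekeeping genes (POLR2A, RPL19 and TBP) in nSolver and took log2. The unlogged values were whole multiples of 1 factor in each animal, so whether the deposited values carry that background subtraction is unclear. The mean of no 3 of the features T036 to T039 was constant over the animals (lowest SD 0.219), so no set of 3 among them could be read as the normalizing genes. Single normalizing genes can still be among them. Groups came from the sample labels. MME and the gene lists were chosen with earlier results of these data known. MME and MMP8 are given in full, with the 5 neutrophil markers and the 3 features with the highest and the lowest r with MME. HAL was added after its values were seen.

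Counts were taken as the smallest whole numbers that fitted the unlogged values (tolerance 0.0001, largest deviation 3.55e-10). Correlations within groups used deviations from the mean of the 6 groups of phenotype and time, with animals permuted within groups (100000 resamples, two-sided) and Benjamini-Hochberg adjustment over 19 features at 0.05. The permutation test was checked on simulated data. The samples were separate animals. Alternatives covered scale, centring, study, time, low values and leaving out each animal. Python 3.11.15, numpy 2.4.6, scipy 1.17.1, pandas 2.3.3 and matplotlib 3.10.9 were used.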

Additional observations from a re-analysis of the deposited data

How the results depend on the processing

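The pooled difference of MME between Ph2 and Ph1 and those at 12 and 24 h kept their direction under all alternatives run, but not their size. The pooled difference of -0.49 was -0.17 among CELTIC animals, -0.92 among STARDUST animals, -0.23 without the 24 h animals and -0.32 without SD9. At 12 h it was -0.12 among CELTIC animals and -0.15 without SD4, and at 24 h it was -0.27 without SD9. At 6 h the difference was 0.081 among CELTIC animals, -0.82 with the median of the other named markers subtracted in each animal, and -0.34 to 0.081 with each animal left out. With this centring, the difference was 0.82 from 12 h to 24 h in Ph1, 0.81 from 6 h to 12 h, 0.68 from 12 h to 24 h and 1.49 from 6 h to 24 h in Ph2. As a share of all counts, the difference from 12 h to 24 h in Ph1 was 0.095 on the log2 scale, and among STARDUST animals that from 6 h to 24 h in Ph1 was 0.075. From 12 h to 24 h in Ph2 it was 0.088 with unlogged means, 0.24 with medians and -0.52 to 0.53 with each animal left out. From 6 h to 24 h in Ph2 it was -0.16 to 0.89 with each animal left out, with a negative sign without SD8 or SD11. MME minus MMP8 at 24 h differed between the phenotypes by 0.12 with medians and by -2.75 to 0.13 with 1 animal at a time left out.

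The number of features correlated with MME within groups was 0. It was 1 (T037, permutation test, adjusted p = 0.030) with only time point means removed, 1 (TGFBI) with group and study means removed, 3 (LCN2, and T036 and TGFBI with an adjusted p of 0.00380 and 0.00912) under the centring, and 0 to 2 with each animal left out (TGFBI without SD6, HAL and LCN2 without G33). The centring subtracts the same value from MME and from each feature in an animal, and permuting animals does not keep that shared part. Under it, r can thus be too high and an adjusted p too low. Within CELTIC the r of MMP8 was 0.020. Under the centring, r was -0.23 for MMP8, 0.083 for OLFM4, 0.25 for CD177, 0.26 for TCN1, 0.062 for T037 and 0.36 for HAL. Without SD9 and C11 it was 0.059 for OLFM4, 0.11 for CD177 and 0.14 for TCN1, and Spearman's rho of TCN1 without SD9 was 0.092. With each animal left out, r ranged from -0.41 to 0.075 for TCN1. Spearman's rho without SD9, and shares of all counts in place of normalized values, were added after seeing the data and gave 0 features. The cause was not tested. No paired analysis was possible because every animal was sampled once and in 1 group. Counts of 11 to 160 limit the precision of MMP8.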
